A study of Rattus norvegicus with 8 samples.

Results

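The miR-99/100 and miR-125 families were examined in the kidneys of rats treated with aristolochic acid (AA), a plant compound that damages the kidney and causes tumours there. All rows of the deposited count table named miR-99a, miR-99b, miR-100, miR-125a or miR-125b were taken, with both arms of each hairpin where listed. This gave 11 of the 620 miRNAs listed. Rows are named here without their species prefix, so that rno-miR-99a, rno-miR-99b, rno-miR-100 and rno-miR-125a-5p appear as miR-99a, miR-99b, miR-100 and miR-125a-5p. All 8 rats were male Big Blue transgenic animals of the strain labelled Fisher 344, which carry a reporter transgene for mutation assays, and all had a labelled age of 18 weeks. The 4 AA-treated rats received the sodium salt of AA by gavage from 6 weeks of age, on 5 days of each week, at a dose of 10.0 mg/kg given in a volume of 4 ml/kg, and the 4 control rats received 0.9% sodium chloride on that schedule. The treatment protocol gives 12 weeks for every rat, whereas the single sample descriptions give 12, 13, 14 and 15 weeks for the rats numbered 1 to 4 of each group. Each kidney gave 1 small RNA library.

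A miRNA is cut from a hairpin precursor. One arm of the hairpin is usually loaded into Argonaute in excess and the opposite arm, marked with an asterisk or as 3p in the table, is largely degraded. The seed near the 5′ end of the mature strand selects the mRNAs that are repressed. miR-125 is the vertebrate counterpart of lin-4, the founding miRNA of developmental timing in worms, and the miR-99/100 family is known for targeting mTOR signalling. In mammals both families are encoded together with let-7 miRNAs in conserved clusters. In the RefSeq annotation of the rat assembly GRCr8, Mir99b, Mirlet7e and Mir125a follow each other on chromosome 1 within the bounds of Spaca6. Mir100, Mirlet7a-2 and Mir125b1 follow each other on chromosome 8 within the bounds of Mir100hgl and Lnc215. Mir99a, Mirlet7c1 and Mir125b2 follow each other on chromosome 11 within the bounds of the long noncoding RNA gene LOC103693508. The mature miR-125b-5p can thus come from 2 hairpins, and its counts do not separate them.

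The sequences show which members share a seed, and therefore which can act on the same sites. RefSeq (GRCr8) gave the mature sequence of 8 of the 11 members by name, and miR-99a, miR-125b* and miR-125b-3p were not matched. The seed, bases 2 to 8 from the 5′ end, is in capitals. The abundant arms and miR-351, the other listed miRNA with the miR-125 seed among the 455 that were matched by name, read as follows.
miR-99b: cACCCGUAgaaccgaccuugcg
miR-100: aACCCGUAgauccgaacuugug
miR-125a-5p: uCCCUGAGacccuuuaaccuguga
miR-125b-5p: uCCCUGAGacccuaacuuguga
miR-351: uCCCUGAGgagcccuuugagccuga

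miR-99b (chr1:67350070-67350091, plus strand) and miR-100 (chr8:50798307-50798328, plus strand) had the same seed and were identical at 18 of 22 bases. The 4 substitutions from miR-99b to miR-100, counted from the 5′ end, were C1A, A11U, C16A and C21U, all outside the seed. miR-125a-5p (chr1:67350689-67350712, plus strand) and miR-125b-5p (chr11:29732588-29732609, plus strand, from Mir125b2) were identical in their first 13 bases and 24 and 22 bases long. How reads that fit more than 1 miRNA were counted is not given in the sources used here, so that counts of near-identical members may be partly shared.

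The opposite arms are printed because the difference that passed the test lay in one of them.
miR-99b*: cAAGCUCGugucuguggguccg
miR-99a*: cAAGCUCGuuucuaugggucug
miR-100*: cAAGCUUGugucuauaggu
miR-125a-3p: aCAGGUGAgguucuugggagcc
miR-125b-1-3p: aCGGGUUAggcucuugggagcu
miR-125b-2-3p: aCAAGUCAggcucuugggaccu

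miR-99b* and miR-99a* shared their seed, whereas the opposite arms of the Mir125b1 and Mir125b2 hairpins had different seeds. Between miR-125b-1-3p and miR-125b-2-3p the substitutions were G3A, G4A, U7C and G20C. The deposited table listed 2 such arms, miR-125b* and miR-125b-3p, without saying which hairpin each belongs to, and no pairing with these sequences was made.

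The libraries of the control group held between 13736874 and 15525397 miRNA counts, and those of the AA-treated group between 13412373 and 15616670. Normalized counts are counts scaled by a size factor per library (median of ratios), which lay between 0.818 and 1.05 for the control group and between 0.891 and 1.28 for the AA-treated group. Each group was tested against the other with the quasi-likelihood test of edgeR over all 620 miRNAs, and a change was called at a Benjamini-Hochberg adjusted p under 0.05 with a ratio of group means over 1.5. Kidney tubule markers (miR-192, miR-194, miR-204 and miR-30a) summed to between 2117129 and 3108992 normalized counts per control kidney and between 1499930 and 2201264 per AA-treated kidney, and 1 of the 4 passed both thresholds downward. The 3 leukocyte markers listed of 4 (miR-142-3p, miR-142-5p and miR-223; miR-155 was not among the rows) summed to between 12705 and 17005 per control kidney and between 28333 and 55201 per AA-treated kidney, without overlap, and 2 of the 3 passed both thresholds upward. The sum of 3 fibroblast markers (miR-199a-3p, miR-199a-5p and miR-214) lay between 6549 and 7895 per control kidney and between 7788 and 13669 per AA-treated kidney. With the smooth muscle markers miR-143 and miR-145 added, the sum of all 5 went the other way, with overlap. It lay between 2559048 and 3549718 per control kidney and between 1973055 and 2676497 per AA-treated kidney. Nearly all of this sum was miR-143, with 2544652 to 3532449 per control kidney and 1949958 to 2660294 per AA-treated kidney. miR-145 did not fall with it, and lay between 6409 and 9616 per control kidney and between 8415 and 10675 per AA-treated kidney. The groups also overlapped for the tubule sum and for the sum of the 3 fibroblast markers. Of these sums only that of the leukocyte markers separated the groups. Most of the tubule sum was miR-30a, which overlapped, as did miR-192. miR-194 lay between 28345 and 36274 per control kidney and between 11305 and 25740 per AA-treated kidney, without overlap. miR-204 lay between 338 and 588 and between 213 and 281, also without overlap. Of the fibroblast markers, miR-199a-3p separated the groups upward (4375 to 5232 and 5453 to 8440), and miR-199a-5p and miR-214 overlapped. The part of these marker differences in the results on the families was not tested. In whole kidney tissue, fewer cells of a type and less of a miRNA per cell cannot be told apart.

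Of the 11 members, 1 passed both thresholds, miR-125b*, which fell, and 10 did not. Among all listed miRNAs 56 passed in either direction, or 9.03%, so that 1 of 11 members was close to the background. Downward, 20 of all listed miRNAs passed, or 3.23%, and a single member is too few to compare with that share. The median log2 fold change of the 11 members was -0.26, and that of all 620 miRNAs was 0.05. The groups did not overlap for 1 member, again miR-125b*, against 16.3% of all miRNAs. The 5 abundant arms (miR-99b, miR-99a, miR-100, miR-125b-5p and miR-125a-5p) had log2 fold changes between -0.32 and -0.05 and adjusted p between 0.369 and 0.877 in the edgeR test, and none had an unadjusted p under 0.05. Their 95% intervals together reached from -0.83 to 0.34. With DESeq2 in place of edgeR, miR-125b* was also the only member called.

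**Figure D1:**
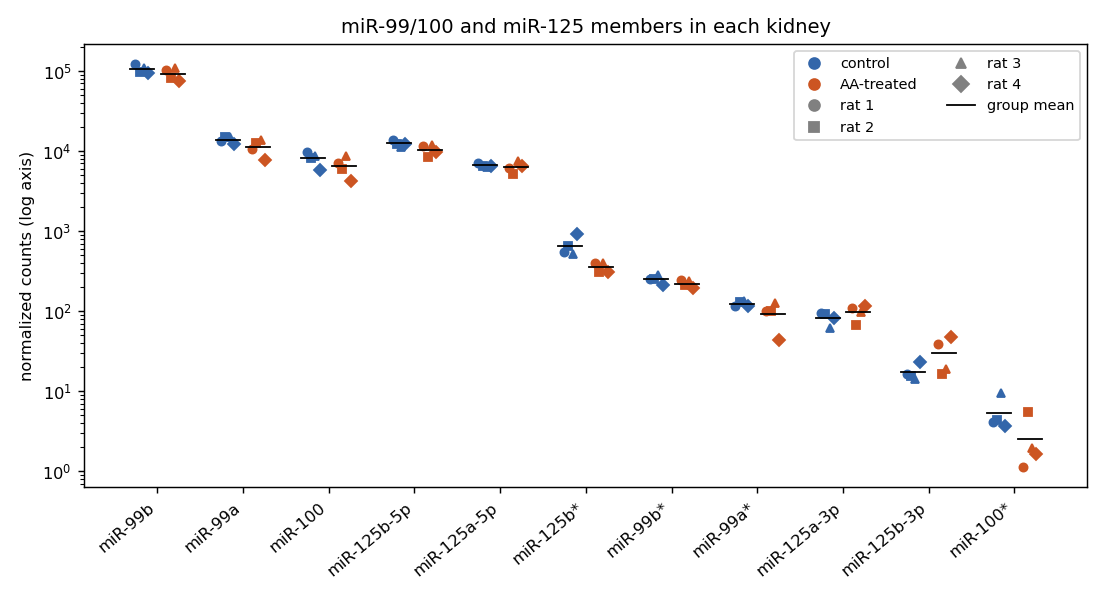
Normalized counts of the 11 family members (horizontal axis) in each kidney, on a log vertical axis, with control rats in blue, AA-treated rats in orange, a marker shape for each rat number and a black line at the mean of the 4 rats of a group. miR-99b is the highest member in both groups, and the only member whose groups do not overlap is miR-125b*.

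In the control kidneys miR-99b was the most abundant member and ranked 18 of 620 over all 8 rats. miR-99a ranked 52, miR-125b-5p 55, miR-100 67 and miR-125a-5p 73. These are orders of reads, which also carry the preferences of adaptor ligation, and not of molecules. In the control rats the ranges of miR-99a and miR-125b-5p overlapped, as did those of miR-100 and miR-125a-5p, so that the order within these pairs is not resolved. The opposite arms were lower, with ranks of 157 for miR-125b*, 192 for miR-99b*, 238 for miR-99a*, 245 for miR-125a-3p, 306 for miR-125b-3p and 439 for miR-100*. Their ranges in the control rats did not overlap between neighbours in this order.

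miR-99b, encoded in the cluster with let-7e and miR-125a, had 121577, 97326, 108763 and 95303 normalized counts in control rats 1 to 4 and 103513, 82706, 107415 and 73850 in AA-treated rats 1 to 4. The groups overlapped, and the rat numbered 4 was the lowest of each. The means were 105742 ± 12106 and 91871 ± 16186 (SD, n = 4 each). In edgeR miR-99b had -0.20 as its log2 fold change (standard error 0.18, 95% interval -0.59 to 0.19, adjusted p = 0.504 from edgeR). As a share of the library, miR-99b took between 0.568% and 0.767% of the counts of a control kidney and between 0.581% and 0.788% of an AA-treated kidney. Scaled to total counts in this way, its log2 fold change was 0.041 instead, so that even its direction depended on the scaling.

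miR-99a, of the cluster with let-7c, had 13217, 14998, 14924 and 12202 normalized counts in control rats 1 to 4 and 10604, 12652, 13586 and 7809 in AA-treated rats 1 to 4. The AA-treated rats reached lower, but 2 of them lay within the control range. The log2 fold change was -0.31 (standard error 0.20, 95% interval -0.74 to 0.12, adjusted p = 0.369 from edgeR). miR-100, of the cluster with let-7a, had 9763, 8271, 8542 and 5759 normalized counts in control rats 1 to 4 and 7055, 5945, 8727 and 4205 in AA-treated rats 1 to 4. The rat numbered 4 was again the lowest of each group for both miRNAs. The log2 fold change of miR-100 was -0.32 (standard error 0.24, 95% interval -0.83 to 0.20, adjusted p = 0.444 from edgeR). Without both rats numbered 4, the log2 fold changes of miR-99b, miR-99a and miR-100 were -0.15, -0.22 and -0.28.

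miR-125b-5p had 13793, 12376, 11385 and 12143 normalized counts in control rats 1 to 4 and 11476, 8390, 11804 and 9791 in AA-treated rats 1 to 4. The 2 lowest values were those of AA-treated rats 2 and 4, and AA-treated rats 1 and 3 lay within the control range. The log2 fold change was -0.26 (standard error 0.18, 95% interval -0.64 to 0.12, adjusted p = 0.396 from edgeR). miR-125a-5p had 7176, 6573, 6247 and 6444 normalized counts in control rats 1 to 4 and 6207, 5232, 7610 and 6527 in AA-treated rats 1 to 4. Its AA-treated values lay on both sides of the control values. The log2 fold change was -0.05 (standard error 0.18, 95% interval -0.43 to 0.34, adjusted p = 0.877 from edgeR), and it was 0.21 with total counts.

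The 3 abundant arms of the miR-99/100 family summed to 127661 ± 13706 normalized counts without AA and 109517 ± 19759 with AA (SD, n = 4 each). The mean log2 sum differed by -0.23 (exact permutation test over 70 labelings, two-sided, p = 0.2, where the smallest p possible is 0.0286). As a share of the library the family took between 0.675% and 0.912% of a control kidney's counts and between 0.675% and 0.952% of an AA-treated kidney's. miR-125a-5p and miR-125b-5p summed to 19034 ± 1404 and 16759 ± 2445 normalized counts (SD, n = 4 each), a difference of -0.19 in mean log2 sum (exact permutation test, two-sided, p = 0.2). With total counts both differences changed sign, to 0.024 and 0.064.

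The make-up of each family was compared within libraries, where no size factor enters. Together, 21 shares and log2 ratios between members, cluster partners and arms were tested with exact permutation tests, and none had an adjusted p under 0.05. The design left little room for one, since a single test at the smallest p possible would have an adjusted p of 0.6 and at least 13 tests at that p would be needed to fall under 0.05. One of them, the ratio of miR-125b* to miR-125b-5p, reached the smallest p the design allows before adjustment. miR-99b made up 82.8% ± 1.65 of the miR-99/100 counts without AA and 84.0% ± 2.09 with AA (SD, n = 4 each; exact permutation test, two-sided, p = 0.457, adjusted p = 0.637). miR-99a made up 10.9% and 10.2% on average, with single rats between 8.75% and 12.5%, and miR-100 made up 6.29% ± 0.821 and 5.83% ± 0.748. The log2 ratio of miR-99a to miR-100 was 0.80 ± 0.27 without AA and 0.80 ± 0.23 with AA (SD, n = 4 each).

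In the miR-125 family, miR-125a-5p made up 34.2%, 34.7%, 35.4% and 34.7% of the counts in control rats 1 to 4 and 35.1%, 38.4%, 39.2% and 40.0% in AA-treated rats 1 to 4. The control rats were within 1.21 percentage points of each other, 3 AA-treated rats lay above all of them, and AA-treated rat 1 lay among them. The mean difference of 3.42 percentage points had p = 0.0571 in the exact permutation test (two-sided) and an adjusted p of 0.24 over the 21 tests.

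**Figure D2:**
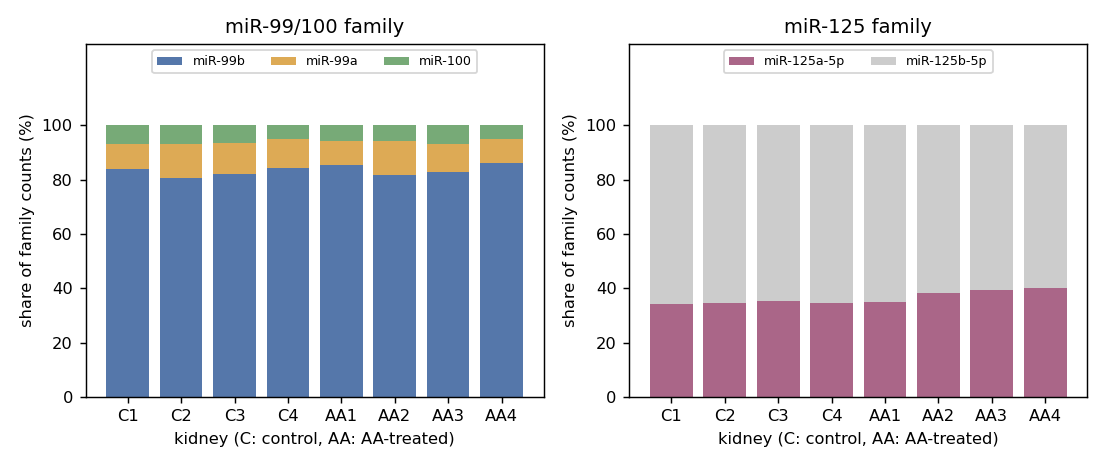
Share of each abundant arm in the counts of its family (vertical axes, percent) in each kidney, with control rats 1 to 4 (C1 to C4) followed by AA-treated rats 1 to 4 (AA1 to AA4). The share of miR-99b stays between 80.7% and 86.0%, and that of miR-125a-5p is between 34.2% and 35.4% without AA and between 35.1% and 40.0% with AA.

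miR-125b*, the opposite arm of a miR-125b hairpin, was the member that fell. It had 522, 598, 551 and 751 counts in control rats 1 to 4 and 357, 401, 408 and 379 in AA-treated rats 1 to 4. After normalization these were 543, 657, 522 and 918 in the control rats and 401, 313, 402 and 309 in the AA-treated rats. Every AA-treated rat was below every control rat, and control rat 4 was well above the other control rats. The means were 660 ± 182 and 356 ± 52.4 normalized counts (SD, n = 4 each), so that the AA-treated mean was 1.85-fold lower. In edgeR the log2 fold change was -0.89 (standard error 0.24, 95% interval -1.41 to -0.37, adjusted p = 0.0340 from edgeR). The exact permutation test on its normalized counts gave p = 0.0286 (two-sided, not adjusted), the smallest it can give. That value follows from the absence of overlap and adds nothing to it.

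This call was near the threshold. The log2 fold change of miR-125b* was negative under all 17 other settings of the fit, from -0.98 to -0.62. Over all 17, the adjusted p from the test of each setting ran from 0.00300 to 0.111. miR-125b* passed both thresholds under 10 of them. It was not called with total counts (log2 fold change -0.63, adjusted p = 0.111 from edgeR), nor without both rats numbered 4 (-0.62, adjusted p = 0.0741). With single rats left out it was lost without control rats 1, 2 or 4 and without AA-treated rats 2 or 4, with adjusted p of 0.0502, 0.0842, 0.0745, 0.0711 and 0.0589 from edgeR.

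**Figure D3:**
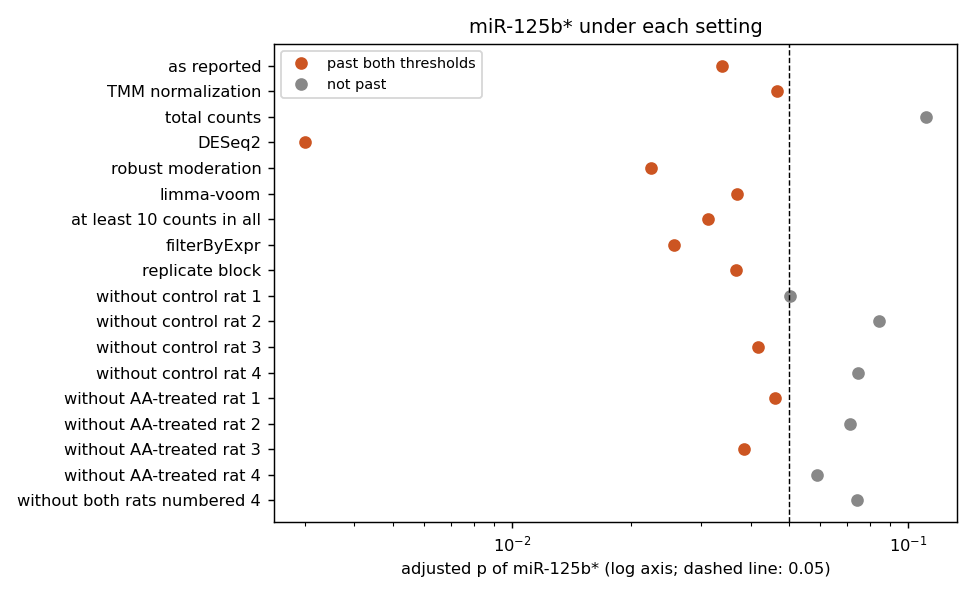
Adjusted p of miR-125b* (log horizontal axis) for the fit as reported and for each of the 17 other settings (vertical axis), with the threshold of 0.05 as a dashed line and settings past both thresholds in orange. The 10 orange settings besides the reported one end at 0.0467, and the 7 grey ones run from 0.0502 to 0.111.

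Relative to miR-125b-5p in the same library, miR-125b* had 3.93%, 5.31%, 4.59% and 7.56% of its counts in control rats 1 to 4 and 3.49%, 3.73%, 3.41% and 3.15% in AA-treated rats 1 to 4. The groups did not overlap. The log2 ratio differed by -0.59 between the groups, which corresponds to a ratio 1.51-fold lower in the AA-treated rats (exact permutation test, two-sided, p = 0.0286, adjusted p = 0.24 over the 21 tests). Without control rat 4 the difference was -0.41.

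miR-125b-3p, the other of the 2 opposite arms listed for miR-125b, was far less abundant and had values in the other direction. It had 16, 14, 15 and 19 counts in control rats 1 to 4 and 35, 21, 19 and 58 in AA-treated rats 1 to 4. AA-treated rats 1 and 4 were above all control rats after normalization, and AA-treated rats 2 and 3 lay among them. The log2 fold change was 0.81 (standard error 0.41, 95% interval -0.06 to 1.68, adjusted p = 0.252 from edgeR). Its log2 ratio to miR-125b-5p differed by 0.92 (exact permutation test, two-sided, p = 0.0571, adjusted p = 0.24). Counts of AA-treated rats spread from 19 to 58, and the interval held both no change and a rise.

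**Figure D4:**
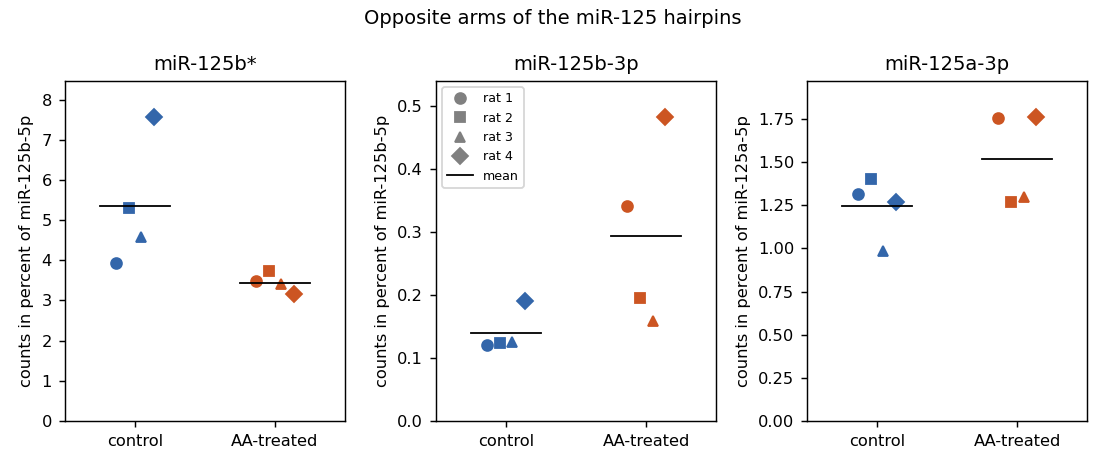
Counts of miR-125b*, miR-125b-3p and miR-125a-3p as a percentage of the abundant arm of the same family member in the same library (vertical axes from 0), for the control (blue) and AA-treated (orange) rats, with a marker for each rat number and a black line at the mean. The mean of miR-125b* is 5.35% in the control and 3.45% in the AA-treated rats, that of miR-125b-3p is 0.140% and 0.295%, and that of miR-125a-3p is 1.24% and 1.52%.

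The other opposite arms did not pass the thresholds. miR-125a-3p had 82.6 ± 15.0 normalized counts in the control and 97.2 ± 21.6 after AA (SD, n = 4 each), and its log2 fold change was 0.23 (adjusted p = 0.608 from edgeR). miR-99b* had 250 ± 28.5 and 221 ± 24.0 (log2 fold change -0.18, or 0.065 with total counts). miR-99a* had 124 ± 9.27 and 92.8 ± 34.7 (log2 fold change -0.42), and the wide spread in the AA-treated rats came from AA-treated rat 4 at 44.0 against 99.9 to 126 in the others. miR-100* had 4, 4, 10 and 3 counts in control rats 1 to 4 and 1, 7, 2 and 2 in AA-treated rats 1 to 4, with overlap (adjusted p = 0.324 from edgeR). Relative to their abundant arms, miR-99a* had 0.896% and 0.809% on average and miR-99b* 0.238% and 0.243% in the control and AA-treated rats, smaller percentages than that of miR-125b* in every library.

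The let-7 miRNAs of the 3 clusters were listed as 6 rows, none of which passed both thresholds or had an unadjusted p under 0.05 in edgeR, nor did the groups separate for any of them. let-7c had 70124, 53340, 57255 and 38054 normalized counts in control rats 1 to 4 and 81944, 59850, 65024 and 73198 in AA-treated rats 1 to 4, a log2 fold change of 0.36 (95% interval -0.08 to 0.79, adjusted p = 0.311 from edgeR). let-7a had 53398, 38914, 39927 and 25935 in the control rats and 65220, 46001, 46749 and 58039 in the AA-treated rats, a log2 fold change of 0.45 (95% interval -0.03 to 0.93, adjusted p = 0.243 from edgeR). Both had 2 AA-treated rats above all control rats, whereas no AA-treated rat was above the highest control rat for miR-99a or miR-100, which are encoded beside them. let-7a and let-7c have further hairpins elsewhere in the genome. The log2 ratio of miR-100 to let-7a was -2.45, -2.23, -2.22 and -2.17 in control rats 1 to 4 and -3.21, -2.95, -2.42 and -3.79 in AA-treated rats 1 to 4. Only AA-treated rat 3 lay within the control range, and the difference of -0.82 had p = 0.0571 in the exact permutation test (two-sided, adjusted p = 0.24). The log2 ratio of miR-99a to let-7c differed by -0.72 (p = 0.0857 in the same exact test, adjusted p = 0.3).

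In the compact cluster on chromosome 1 the partner let-7e had a log2 fold change of 0.15 (95% interval -0.38 to 0.69, adjusted p = 0.712 from edgeR). The log2 ratio of miR-99b to let-7e was 3.39 ± 0.23 without AA and 3.04 ± 0.45 with AA, and that of miR-99b to miR-125a-5p was 3.99 ± 0.13 and 3.84 ± 0.25 (SD, n = 4 each). These differences had p of 0.229 and 0.371 in the exact permutation test. The opposite arm let-7e* had 58, 76, 83 and 4 counts in control rats 1 to 4 and 67, 1, 1 and 1 in AA-treated rats 1 to 4, a spread within each group that leaves its change undecided.

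**Figure D5:**
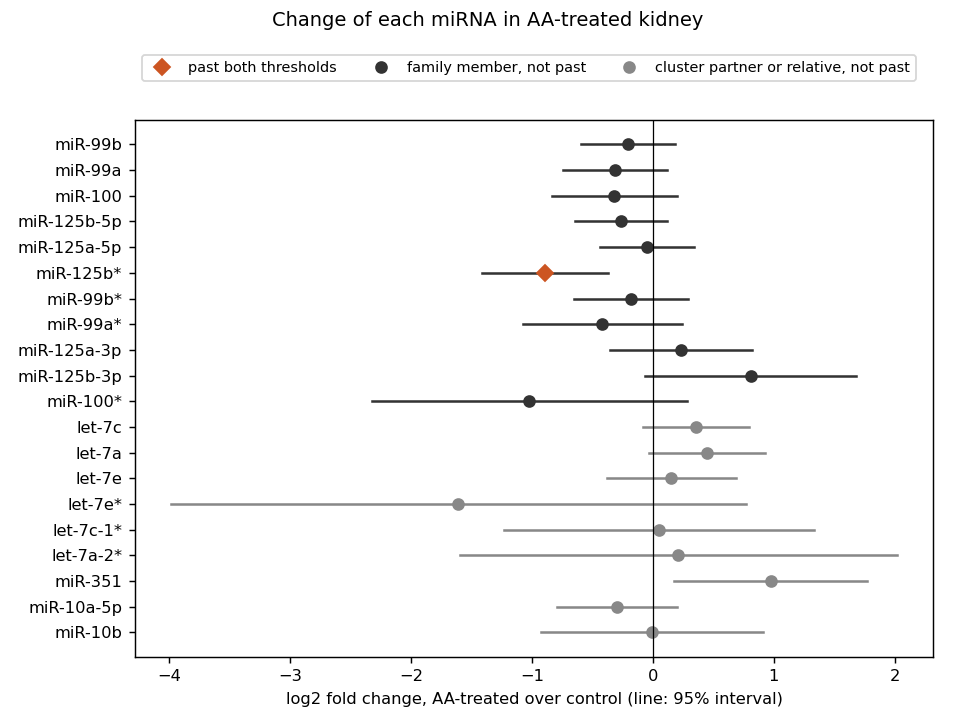
Log2 fold change of AA-treated over control kidneys (horizontal axis) with its 95% interval for the 11 members (dark), and for the let-7 cluster partners, miR-351, miR-10a-5p and miR-10b (grey). Only the interval of miR-125b* among the members, and that of miR-351 among the others, leaves out 0, and miR-125b* alone passed both thresholds.

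miR-351 carries the miR-125 seed and is encoded elsewhere, on the X chromosome. It had 240, 224, 182 and 236 normalized counts in control rats 1 to 4 and 503, 251, 196 and 782 in AA-treated rats 1 to 4. AA-treated rats 1, 2 and 4 were above all control rats, rat 2 by little, and AA-treated rat 3 was within the control range. Its log2 fold change was 0.97 (standard error 0.37, 95% interval 0.18 to 1.77, adjusted p = 0.135 from edgeR), so that it was not called. miR-351 was present at a small fraction of the counts of miR-125b-5p. miR-10a-5p, a close relative of miR-100 in sequence that shares its internal run UAGAUCCG but not its seed, ranked 4 of 620 and had a log2 fold change of -0.30 (95% interval -0.79 to 0.20, adjusted p = 0.460 from edgeR). That of miR-10b was -0.01 (adjusted p = 0.988).

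As a description of which other miRNAs followed the members from rat to rat, Pearson's r of log2 normalized counts was taken over the 8 rats, with the 232 other miRNAs of at least 100 normalized counts on average. The values named are the 3 highest of the 232 for each member, a choice that by itself favours a high r over 8 rats. The points share size factors and the division into groups. Each r was also taken with each rat left out in turn, an alternative chosen after the values were seen. The miRNAs most like miR-99b were miR-215 (r = 0.935), miR-33 (0.909) and miR-10a-5p (0.863), and those most like miR-100 were miR-33 (0.971), miR-10a-5p (0.955) and miR-101a (0.931). miR-99a was most like miR-200a (0.969), miR-664 (0.968) and miR-200b (0.957), and miR-99a* most like miR-126* (0.983), miR-200a* (0.969) and miR-200b* (0.968). The last 3 values leaned on AA-treated rat 4, the lowest of all rats in these miRNAs, and were 0.810, 0.690 and 0.665 without it. The other values for miR-99a, miR-99b, miR-99b* and miR-100 were also lowest without AA-treated rat 4, from 0.729 to 0.951. miR-125b-5p was most like miR-30a (0.944), miR-30d (0.884) and miR-194* (0.844), of which miR-194* passed both thresholds downward (log2 fold change -0.88, adjusted p = 0.0386 from edgeR). The miRNAs most like miR-125a-5p followed it less closely, namely miR-547 (0.868), miR-30a (0.760) and miR-206 (0.739), which were 0.662, 0.409 and 0.568 without AA-treated rat 2. miR-99b* was most like miR-320 (0.953), miR-215 (0.934) and miR-455* (0.926). miR-125b* was most like miR-3545-3p (0.979), miR-152 (0.964) and miR-139-5p (0.963), of which miR-3545-3p and miR-152 passed both thresholds downward, with log2 fold changes of -1.31 and -0.81 (adjusted p = 0.00288 and 0.0131 from edgeR). Between members, r was 0.923 for miR-99b and miR-100 and 0.0976 for miR-99a and miR-125a-5p.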

How the data were processed

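Small RNA libraries of 8 rat kidneys, 1 per rat, were analysed. The authors masked adaptors, removed contaminated reads and ran miRanalyzer with default settings to detect known miRNAs, and deposited raw counts, in whole numbers, for each mature miRNA in each rat. The submitters' processing notes name CASAVA 1.7. No genome build is named for the table.

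Size factors (median of ratios) were taken over the table and all 620 miRNAs were fitted with edgeR 4.0.16 (R 4.3.3), without covariates or filter. The standard error is the log2 fold change divided by the square root of the F statistic. Single values, shares and log2 ratios of counts (pseudocount 1) were compared with exact permutation tests. The 21 tests of shares and ratios were adjusted together, and those of single values, such as the family sums, were not adjusted. Alternatives were TMM, total counts, DESeq2 1.42.0, robust moderation, limma-voom (limma 3.58.1), 2 filters, other fold thresholds and pseudocounts, a replicate block and fits without single rats or both rats numbered 4.

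In simulated counts of the 620 miRNAs, 86.4% of 2-fold and 100.0% of 4-fold changes with a mean of at least 10 counts were recovered, with 1.50% false calls. Every simulated miRNA had the same dispersion, so that these percentages need not hold for miRNAs whose counts spread more between rats. No library repeated another within its group (lowest chi-square 394 for each degree of freedom). The members and lists were chosen with earlier results of these data known. Named were all members, their let-7 cluster partners, seed-sharing miRNAs, miR-10a-5p and miR-10b, and the 3 miRNAs most like each member of at least 100 normalized counts. Marker lists of red cells, endothelium, hepatocytes and striated muscle were also summed, and the groups overlapped for each. The hepatocyte list was miR-122 alone, which had 7519 normalized counts in AA-treated rat 2. The other AA-treated rats had 10.1 to 42.4 and the control rats 60.4 to 735. The cause of this value was not tested. Sequences came from RefSeq (GRCr8).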

Additional observations from a re-analysis of the deposited data

Results flagged for a closer look

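In each group of 4 rats, a sample whose gap to the nearest other exceeded Dixon's 95% critical share of the range was sought in 68 groups of values, and 2 were found, where chance gives about 1 in 20. miR-100* had 9.48 normalized counts in control rat 3 against 3.67 to 4.39 in the other control rats, which rests on 10 against 3 to 4 counts. The log2 ratio of miR-125b-3p to miR-125b-5p was -8.96 in control rat 4 against -9.61 to -9.55 in the other control rats.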

How the results depend on the processing

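Total counts moved the median over all miRNAs from 0.05 to 0.31 on the log2 scale and turned the log2 fold changes of miR-99b (0.041), miR-125a-5p (0.21) and miR-99b* (0.065) and the family sums of miR-99/100 (0.024) and miR-125 (0.064) positive. The number of members called fell from 1 to 0 with total counts, with a fold threshold of 2 and without both rats numbered 4, and lay between 0 and 1 with single rats left out, and it was 1 under the other settings. With single rats left out, the log2 fold change of miR-125a-5p ran from -0.15 to 0.038, and the group differences in the log2 ratios ran from -0.11 to 0.10 for miR-99a to miR-100, from -0.025 to 0.085 for miR-99b* to miR-99b, from -0.23 to 0.074 for miR-99a to miR-125b-5p, from -0.22 to 0.10 for miR-100 to miR-125b-5p and from -0.37 to 0.033 for miR-125a-5p to let-7e. The cause of these moves was not tested. The other shares, ratios and log2 fold changes kept their direction under the alternatives run, but without 1 rat the exact test cannot reach a p below 0.0571. A shared number does not mark 1 animal, and the deviations of same-numbered rats from the group means correlated at -0.01, 0.14, 0.12 and 0.34 for numbers 1 to 4. AA-treated rats 3 and 4 correlated best with the control rat of their own number, and AA-treated rats 1 and 2 with another. With a replicate block the fit called 74 miRNAs in place of 56, and 1 member, miR-125b* (adjusted p = 0.0367 from edgeR). Intervals give the uncertainty of a group difference as estimated from these 8 rats. miR-100* had at most 10 counts in a rat. The filter of edgeR on low counts removed miR-100*, which has no value there.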

Other observations

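The proportion of the 2 opposite arms listed for miR-125b is given as a description without a test, since it was chosen after the values were seen. miR-125b* had 32.6, 42.7, 36.7 and 39.5 counts for each count of miR-125b-3p in control rats 1 to 4, and 10.2, 19.1, 21.5 and 6.53 in AA-treated rats 1 to 4. The groups did not overlap, and control rat 4, which had the highest level of both arms among the control rats, had a proportion between those of the other control rats.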
